A study of Mus musculus with 6 samples.

Results

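The glypicans and syndecans are the 2 gene families whose core proteins carry heparan sulfate on the cell surface. All 10 mouse members were taken by gene symbol, 6 glypicans (Gpc1 to Gpc6) and 4 syndecans (Sdc1 to Sdc4), out of 24197 genes in the table of counts. The cells were stromal-vascular cells from the inguinal fat of C57BL/6 mice, that is, the non-adipocyte cells of that depot, kept in a standard growth medium. Both groups carried a retrovirus: the puro group a control (puro) virus and the Prdm16 group a virus with Prdm16, a zinc-finger regulator of transcription known from brown and beige fat. Each group had 3 libraries, and the comparison asks how forced Prdm16 alters transcription in these cells. The labels give neither the age nor the sex of the mice, and do not say whether the replicates are separate cultures or animals. An SD or SE here therefore measures the spread between libraries, which may be technical.

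A glypican is held to the outer leaflet of the membrane by a lipid (GPI) anchor and carries its chains close to the membrane, whereas a syndecan crosses the membrane and ends in a short cytoplasmic tail that binds scaffold proteins. The sulfated chains of both bind growth factors, morphogens and matrix proteins and act as co-receptors, for example for fibroblast growth factors, Wnt and Hedgehog ligands. In adipose stroma the families are known as surface partners of growth factor and matrix signals. Which proteins a chain binds depends on the pattern of sulfate groups that Golgi enzymes place on it and that extracellular sulfatases later remove.

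Library totals ran from 28169059 to 35798201 counts, and levels are given as CPM, the count scaled to a common library total after TMM adjustment. A count of 0 allows up to 3 counts, or 0.0852 to 0.104 CPM in a library, for counting error only. Prdm16 itself had 14 to 25 counts in a puro library and 72525 to 98437 in a Prdm16 library. Of the markers of stromal progenitors and fibroblasts, 7 of 7 were detected, with a summed level of 2696 to 3166 CPM in puro and 1476 to 1576 CPM in Prdm16 libraries. Within that list 5 were lower at an edgeR adjusted p under 0.05, as were 38% of all tested genes. Among the 5 were Col1a1 (mean 1705 to 145 CPM) and Pdgfrb (555 to 195 CPM). Ly6a was higher (376 to 988 CPM), as were 37.5% of all tested genes, and Pdgfra did not pass. B and plasma cell markers summed to at most 0.484 CPM in any library, with Ms4a1 and Pou2af1 at 0 counts throughout. Endothelial markers summed to 1.67 to 1.83 CPM in puro and 9.003 to 11.9 CPM in Prdm16 libraries, through Tek (1.19 to 10.2 CPM), with Cdh5 at 0 counts in all 6. Macrophage markers went from 14.2 to 15.3 CPM in puro to 8.33 to 8.61 CPM in Prdm16 libraries, with Emr1 at 0 counts in all 6, and Schwann cell markers from 7.71 to 8.13 to 3.03 to 3.35 CPM, with Sox10 at 0 counts in all 6. The summed mesothelial markers were 7.06 to 7.45 CPM in puro and 89.6 to 95.04 CPM in Prdm16 libraries, which was Msln (6.30 to 91.2 CPM), while Wt1 fell from 75 counts over the group to 1. The adipocyte markers summed to 137 to 151 CPM in puro and 535 to 634 CPM in Prdm16 libraries, most of it Fabp4 (115 to 551 CPM). Adipoq (0.279 to 2.36 CPM) and Cidec (0.0895 to 3.46 CPM) were also higher, from low puro levels. Lipe was lower (30.2 to 17.7 CPM), and Plin1 and Retn were near 0 in both groups. In bulk RNA, fewer cells of a type and less RNA per cell cannot be told apart.

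The members were chosen by gene name, and the families were proposed with their Prdm16 against puro fold changes and CPM already seen. Their differences are therefore given as measured, with their errors, and no p-value is attached to them. With Prdm16, Gpc1, Gpc2, Gpc3, Sdc1 and Sdc4 stood higher and Gpc4, Gpc6, Sdc2 and Sdc3 lower, and Gpc5 was practically absent from all 6 libraries. In the edgeR fit over all genes, 9 members could be tested and 9 had an adjusted p under 0.05, 5 higher and 4 lower. That rule called 75.6% of all 13805 tested genes (37.5% higher, 38% lower), and no more is read from the count. A log2 fold change of at least 1 in size together with that threshold was reached by 5 members (Gpc3, Gpc6, Sdc2, Sdc3 and Sdc4) and by 21.8% of all tested genes. The puro and Prdm16 libraries did not overlap for the same 9 members, as they did not for 77.6% of all tested genes. The median log2 fold change (Prdm16 over puro) was 0.55 over the 5 tested glypicans and −0.44 over the 4 syndecans, beside −0.01 over all tested genes. Both families held members in each direction. The syndecan median lies between 0.69 for Sdc1 and −1.57 for Sdc2, so it describes no single syndecan.

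**Figure D1:**
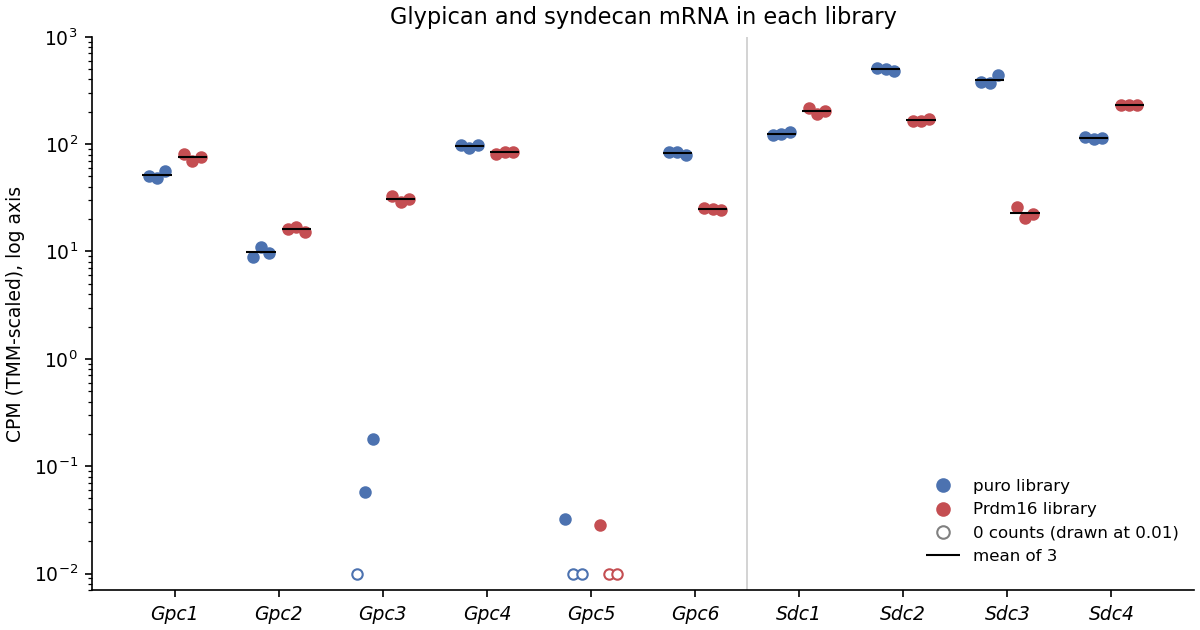
CPM of each member on a log axis, 1 point per library, with puro in blue, Prdm16 in red and a line at the mean of 3 where no library was at 0. Open points are libraries with 0 counts, drawn at 0.01 CPM. Gpc3 lies at or under 0.179 CPM in puro and between 29.2 and 33.2 CPM in Prdm16 libraries, and Sdc3 moves the other way by the widest margin.

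Prdm16 libraries held less family mRNA in all, and a different mixture. To compare genes with each other, CPM was divided by the kilobases of exon of each gene, here called the level per kb. The summed level per kb of the 10 members was 346 ± 5.84 in puro and 261 ± 5.79 in Prdm16 libraries (SD, n = 3), a ratio of 0.754. The syndecans accounted for that: their summed level per kb went from 285 ± 4.195 to 195 ± 4.58, while the glypicans' went from 61.2 ± 1.66 to 65.4 ± 1.22 (SD, n = 3). The direction for the glypican sum depends on the length scaling, since by CPM without length it went from 239.6 ± 4.77 to 231 ± 6.20 (SD, n = 3) and the groups overlapped. The glypican share of the family level per kb was thus 17.5% to 17.8% in puro and 24.99% to 25.19% in Prdm16 libraries.

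Within the syndecans the leading pair changed places. Sdc2 and Sdc3 together made up 59.7% to 60.0% of the family level per kb in the puro group and 19.7% ± 0.347 (SD, n = 3) in the Prdm16 group. Sdc1 and Sdc4 together made up 22.3% to 22.5% in puro and 55.0% to 55.7% in Prdm16 libraries. The mean level per kb fell by 93.5 for Sdc2 and fell by 62.3 for Sdc3, and it was 46.4 higher for Sdc4 and 20.3 higher for Sdc1. The pairs were formed with the direction of each gene in these data known, so a separation of their summed shares was built in. No library of 1 group came near the other group in any of these shares.

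**Figure D2:**
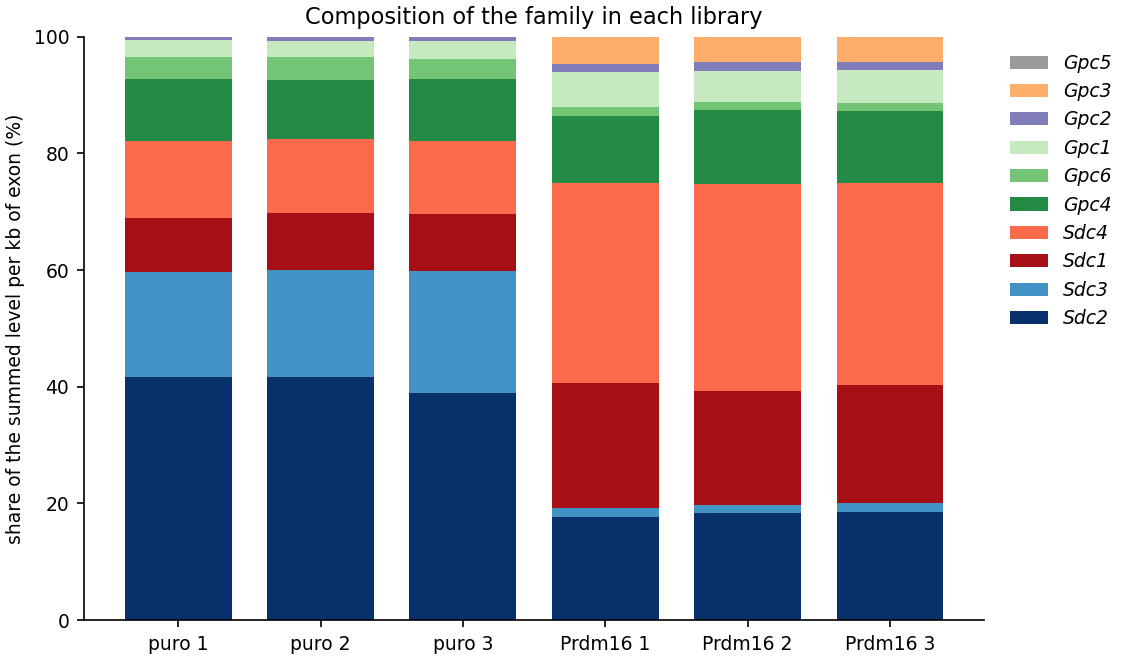
Share of each member in the summed level per kb of exon, in percent, stacked for each of the 6 libraries. Blue segments (Sdc2, Sdc3) fill 59.7% to 60.0% of the puro bars, and red segments (Sdc1, Sdc4) fill 55.0% to 55.7% of the Prdm16 bars.

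In puro libraries the order of mean levels per kb was Sdc2 (141), Sdc3 (66.1), Sdc4 (44.6), Gpc4 (36.1), Sdc1 (32.9), Gpc6 (12.8), Gpc1 (10.02), Gpc2 (2.30), then Gpc3 and Gpc5. Neighbours in this order did not overlap between libraries, apart from Gpc3 and Gpc5 at the bottom. In Prdm16 libraries the order was Sdc4 (91.0), Sdc1 (53.2), Sdc2 (47.5), Gpc4 (31.6), Gpc1 (14.6), Gpc3 (11.5), Gpc6 (3.88), Sdc3 (3.81), Gpc2 (3.78) and Gpc5. Gpc6, Sdc3 and Gpc2 could not be ranked there, since their libraries overlapped. With the longest transcript as the length in place of all exons, Sdc1 (39.7) came before Gpc4 (36.1) in the puro order, and the order in Prdm16 libraries was the same with Gpc6, Sdc3 and Gpc2 apart.

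Among the glypicans, Gpc3 showed the widest difference. Gpc3 is the glypican lost in the overgrowth disorder Simpson-Golabi-Behmel syndrome and is known to bind Hedgehog and Wnt ligands. It had 0, 2 and 6 counts in the puro libraries and 1168, 845 and 1025 in the Prdm16 libraries, which is 0, 0.0573 and 0.179 CPM against 33.2, 29.2 and 30.7 CPM. The puro values lie around the counting floor, while the Prdm16 values lie well above it and close together. Over the groups, 8 counts stood against 3038, a ratio of 387 for which the exact 95% binomial limits were 196 and 898, and the fitted log2 fold change was 8.53 ± 0.22 (SE). Of the 8 puro counts 6 lay in puro replicate 3, and without that library the ratio was 1026 (limits 284 and 8477) and the fitted value 9.83; these limits cover counting error only.

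Gpc4, which sits directly beside Gpc3 on the X chromosome, differed least of the 9 tested members. Gpc4 is a glypican of stem and progenitor cells and is also known as an insulin-sensitizing factor released from fat. Its levels were 97.9, 91.2 and 97.8 CPM in puro and 81.2, 84.7 and 85.2 CPM in Prdm16 libraries. The groups did not overlap, but the gap was small, with a log2 fold change of −0.19 ± 0.04 (SE). In level per kb, Gpc3 amounted to at most 0.180% of Gpc4 in a puro library and to 33.98% to 40.3% of it in a Prdm16 library. The median log2 fold change of the 437 tested genes of the X chromosome was 0.03.

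The sequence before the start of Gpc3 and of Gpc4 is shown with that of Sdc3, since these members differ most in how they moved: 1 from near 0 to expressed, 1 slightly lower and 1 to a small remainder. Each run is the 250 bases upstream of the start, 5′ to 3′ on the gene's strand, from RefSeq on GRCm38.p6, with CG dinucleotides in capitals. Gpc3 is chrX:52613975-52614224 (minus strand), Gpc4 chrX:52164924-52165173 (minus strand) and Sdc3 chr4:130792287-130792536 (plus strand).
Gpc3: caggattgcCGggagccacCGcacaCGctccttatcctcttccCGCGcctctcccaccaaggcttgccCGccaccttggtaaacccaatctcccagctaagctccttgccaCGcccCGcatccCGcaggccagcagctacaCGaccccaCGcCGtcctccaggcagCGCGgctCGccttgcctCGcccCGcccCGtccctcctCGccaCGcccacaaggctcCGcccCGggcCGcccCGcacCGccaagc
Gpc4: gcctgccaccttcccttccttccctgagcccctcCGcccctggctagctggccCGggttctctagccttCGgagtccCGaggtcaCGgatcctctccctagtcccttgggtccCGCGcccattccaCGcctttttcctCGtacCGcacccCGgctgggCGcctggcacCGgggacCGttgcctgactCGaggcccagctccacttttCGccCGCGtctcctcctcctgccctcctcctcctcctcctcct
Sdc3: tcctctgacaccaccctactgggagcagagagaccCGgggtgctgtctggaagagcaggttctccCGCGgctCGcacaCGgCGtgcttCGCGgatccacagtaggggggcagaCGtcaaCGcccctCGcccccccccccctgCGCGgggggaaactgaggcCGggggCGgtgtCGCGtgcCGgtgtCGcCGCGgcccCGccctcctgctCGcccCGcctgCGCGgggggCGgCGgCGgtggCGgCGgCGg

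The Gpc3 window held 25 CG, the Gpc4 window 18 and the Sdc3 window 32, against a median of 6 (quartiles 2 and 16) over 32851 RefSeq windows of the same length. All 3 are therefore CpG-rich, whichever way the gene moved. GGGCGG, the GC box, was searched on both strands and matched 3 times in Gpc3, once in Gpc4 and 3 times in Sdc3; 32.7% of all windows hold it. TATAAA, searched on both strands, had no match in these 3 windows, and 12.4% of all windows hold it. The palindrome CACGTG had none in them either, with 6.02% of all windows holding it. Of the 10 members, 7 had an entry; the other 4 of these, Gpc2, Gpc5, Sdc1 and Sdc4, held 19, 12, 10 and 19 CG.

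Gpc6 was the glypican with the clearest decrease. It is a widely expressed mesenchymal glypican whose loss in humans causes a short-limb dysplasia. Gpc6 measured 84.5, 83.8 and 78.7 CPM in puro and 25.5, 24.8 and 24.5 CPM in Prdm16 libraries, a log2 fold change of −1.72 ± 0.04 (SE). All 3 Prdm16 libraries lay far under the puro range. Chromosome 14, where it lies, had a median log2 fold change of 0.49 over 428 tested genes, and relative to that median Gpc6 stood at −2.22.

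Gpc5, its neighbour on chromosome 14, had 1 count over the 3 libraries of each group. Gpc5 is a glypican of the nervous system and kidney, and no fold change is given at these counts.

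Gpc1 and Gpc2 were modestly higher with Prdm16. Gpc1, a broadly expressed glypican known as a co-receptor for fibroblast growth factors, measured 50.4, 48.1 and 56.5 CPM in puro and 81.4, 69.9 and 75.4 CPM in Prdm16 libraries, with a log2 fold change of 0.55 ± 0.07 (SE). Gpc2, a glypican of developing neurons, measured 8.93, 11.0 and 9.62 CPM in puro and 16.3, 16.8 and 15.3 CPM in Prdm16 libraries, with a log2 fold change of 0.71 ± 0.08 (SE). For both genes the lowest Prdm16 library was above the highest puro library. Ankmy1 overlaps 977 bases of Gpc1 exon on the opposite strand and was itself at 0.355 CPM in puro and 0.194 CPM in Prdm16 libraries (no strand setting is known, so their reads may be mixed). Gm43720 overlaps 2376 of the 4274 exon bases of Gpc2 on the same strand and has no entry among the counted gene symbols. The level of Gpc2 is therefore uncertain.

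Sdc3 had the largest decrease of the family. Sdc3 is a syndecan of neural and muscle tissue that is known in the hypothalamus for its part in feeding. It measured 376, 374 and 439 CPM in puro and 25.8, 20.4 and 22.2 CPM in Prdm16 libraries. The log2 fold change was −4.11 ± 0.09 (SE), a 17.3-fold difference, and all 3 Prdm16 libraries lay far under the puro range. Its share of the family level per kb went from 19.1% ± 1.55 to 1.46% ± 0.144 (SD, n = 3), and by CPM without length from 28.9% to 2.66%. Antisense genes Gm26716 and Gm12970 overlap 415 and 48 bases of its exons on the opposite strand. Neither symbol is among those counted. Of all tested genes, 3.26% differed by at least as much in either direction.

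Sdc2, the syndecan typical of fibroblasts and other mesenchymal cells, was the most abundant member per kb in puro libraries. It measured 511, 498 and 482 CPM in puro and 166, 165 and 172 CPM in Prdm16 libraries. The 2 groups were tight and far apart, with a log2 fold change of −1.57 ± 0.04 (SE). Chromosome 15 had a median log2 fold change of −0.38 over 556 tested genes, and relative to it Sdc2 stood at −1.19. Of the 4 nearest tested genes on each side of Sdc2, 7 of 8 were lower, none higher and 1 did not pass, and their median log2 fold change was −0.57. Over all tested genes 38% were lower.

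Sdc4 and Sdc1 were higher with Prdm16. Sdc4, a ubiquitous syndecan of focal adhesions whose tail binds protein kinase C alpha, measured 117, 111 and 113 CPM in puro and 233, 230 and 232 CPM in Prdm16 libraries. Its log2 fold change was 1.03 ± 0.03 (SE), about a 2.04-fold difference, and it replaced Sdc2 as the most abundant member per kb. Sdc1, the syndecan typical of epithelia and plasma cells, measured 122, 125 and 129 CPM in puro and 215, 191 and 202 CPM in Prdm16 libraries, with a log2 fold change of 0.69 ± 0.05 (SE). The 10 epithelial markers summed to 0.581 to 0.834 CPM in puro and 26.8 to 28.6 CPM in Prdm16 libraries, with Esrp1 and Cldn3 at 0 counts in all puro libraries. Of the 10, 4 could be tested and 4 were higher. These were Krt18 (mean 0.0684 to 13.3 CPM), Cdh1 (0.0796 to 7.20 CPM), Esrp1 (0 to 5.82 CPM) and Epcam (0.0604 to 1.15 CPM). Each passed the expression filter only through its Prdm16 libraries, with at most 5 counts in a puro library. Higher was thus the only outcome open to these 4, and nothing is read from that count. Cldn7 went the other way (0.370 to 0.161 CPM), and Krt8, Krt5, Krt14, Cldn3 and Cldn4 were near 0 in both groups. The part of epithelial-type expression in the level of Sdc1 was not tested.

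**Figure D3:**
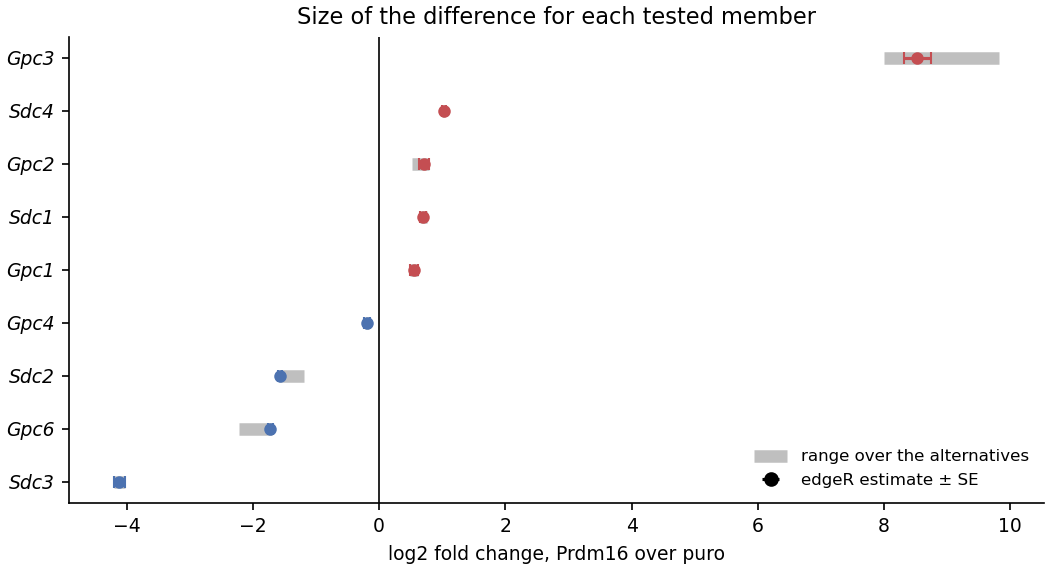
Log2 fold change, Prdm16 over puro, of the 9 tested members: points are edgeR estimates with SE, and grey bars span all alternatives tried. No bar crosses 0; Gpc3 spans 8.01 to 9.83, and Gpc4, closest to 0, spans −0.23 to −0.16.

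The other genes that build, edit and use these proteoglycans were listed by role, 95 in all, of which 94 were in the table and 87 could be tested. Of the 87, 30 were higher, 38 lower and 19 did not pass edgeR's quasi-likelihood test at a Benjamini-Hochberg adjusted p of 0.05, beside 75.6% of all tested genes called. Their median log2 fold change was −0.06, beside −0.01 for all tested genes. The shares over all tested genes, 37.5% higher and 38% lower, also stand beside each list count below. The p-values in the following paragraphs are from that fit. The lists were chosen with earlier results of these data known, and genes were named from them mainly by smallest p. The spread between libraries, against which the fit measures a difference, may be technical. These p-values therefore describe these libraries only and are not an independent test of the genes named.

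Of 11 genes for the linkage region and chain polymerisation, 3 were higher, 5 lower and 3 did not pass, with a median of −0.20. Ext1, which with Ext2 forms the enzyme complex that polymerises heparan sulfate, fell from 248 ± 4.68 to 90.8 ± 4.67 CPM (SD, n = 3; edgeR log2 fold change −1.45 ± 0.04 SE, adjusted p = 1.26e-10). Its partner Ext2 had −0.30 ± 0.04 (adjusted p = 3.03e-05). Ext1 lies on chromosome 15, as Sdc2 does. Extl3, which starts chains, rose by 0.34 ± 0.04, and its low-level relative Extl1 had −1.39 ± 0.17. The rise of Extl3 was no larger than the median log2 fold change of its chromosome, 14, which was 0.49 over 428 tested genes.

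Genes that sulfate and epimerise the chain moved both ways. Of 16 listed, 12 were tested, with 5 higher, 6 lower and 1 not passing, and a median of −0.02. Hs3st1, the 3-O-sulfotransferase known for making the antithrombin-binding site of heparin, rose from 0.141 ± 0.0622 to 36.3 ± 1.86 CPM (SD, n = 3; edgeR log2 fold change 7.97 ± 0.14 SE, adjusted p = 2.78e-12). The 6-O-sulfotransferase Hs6st2 rose from 78.8 ± 1.15 to 272 ± 11.6 CPM (SD, n = 3; edgeR adjusted p = 1.74e-11), and it is the nearest tested gene to Gpc4 on the side away from Gpc3. Its relative Hs6st3 had 0 counts in the puro libraries and 78 in the Prdm16 libraries, at least 26.5-fold higher against a floor of 3 counts over the group. The epimerase Glce, which converts glucuronic to iduronic acid, fell by 1.57 ± 0.04 on the log2 scale, and the N-sulfotransferase Ndst3 had −3.14 ± 0.16 (adjusted p = 3.06e-11 and 1.35e-08). Of the 5 genes tested for supply of the sulfate donor 1 was higher, 3 lower and 1 did not pass; Papss2, a synthase of the donor PAPS, had −1.20 ± 0.05.

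The extracellular 6-O-endosulfatases went opposite ways. Sulf1 rose from 98.7 ± 3.46 to 215 ± 18.1 CPM, and Sulf2 fell from 118 ± 9.51 to 19.2 ± 2.01 CPM (SD, n = 3; edgeR adjusted p = 1.28e-08 and 1.24e-10). Heparanase, Hpse, which cleaves the chains, did not pass, with −0.03 ± 0.07 on the log2 scale (adjusted p = 0.751). Its homologue Hpse2, which lacks that activity, had 1 count in the puro libraries and 156 in the Prdm16 libraries, which gives a ratio of 159 with exact 95% binomial limits of 28.1 and 6322. Notum, a lipase first described as releasing glypicans from their anchor, rose by 3.26 ± 0.27 on the log2 scale to 1.58 ± 0.165 CPM (SD, n = 3; edgeR adjusted p = 7.24e-07). With Gpld1, which did not pass, the 6 genes of editing and release gave 3 higher, 1 lower and 2 not passing. All 8 lysosomal genes of heparan sulfate breakdown passed, 5 higher and 3 lower, within −0.90 and 0.67 on the log2 scale. Of all tested genes 75.6% passed.

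**Figure D4:**
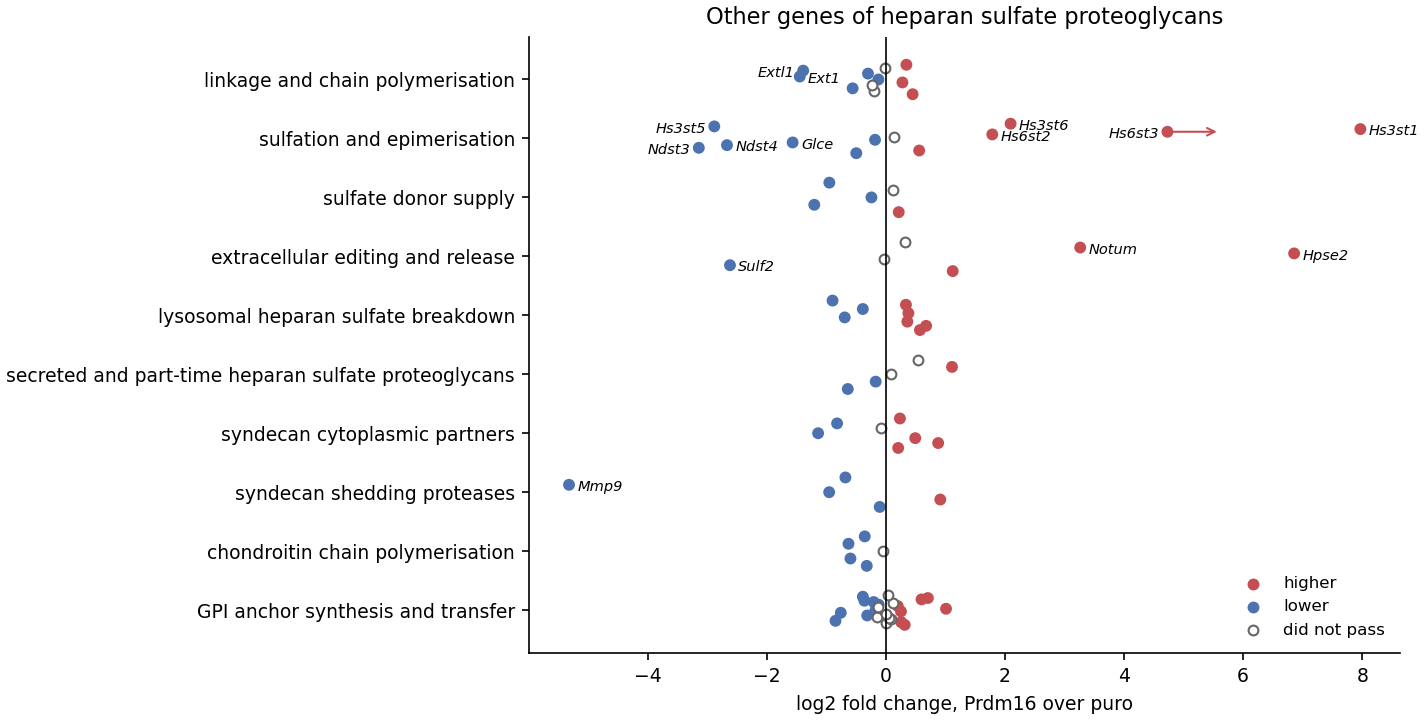
Log2 fold change, Prdm16 over puro, of each of the 87 tested genes of the listed roles, with red points higher, blue points lower and open points not past an adjusted p of 0.05. The arrow marks Hs6st3, drawn at its lower bound. The sulfation and editing rows spread widest, from −3.14 for Ndst3 to 7.97 for Hs3st1.

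Of 5 other carriers of heparan sulfate 1 was higher, 2 lower and 2 did not pass. Perlecan, Hspg2, a basement membrane proteoglycan, fell from 1659 ± 148 to 1063 ± 85.2 CPM (SD, n = 3; edgeR adjusted p = 6.21e-06), and agrin, Agrn, another such proteoglycan, had −0.17 ± 0.04 on the log2 scale (adjusted p = 0.00211). Betaglycan, Tgfbr3, a TGF-beta co-receptor that can carry such chains, rose from 148 ± 2.43 to 319 ± 11.1 CPM (SD, n = 3; edgeR adjusted p = 3.13e-10). Col18a1 and Srgn did not pass. Of 5 tested chondroitin polymerisation genes, which extend the other kind of chain found on Sdc1 and Sdc3, 4 were lower, none higher and 1 did not pass.

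Genes for proteins that meet the syndecan tail or cut the syndecan ectodomain were also measured. Of 7 tail partners 4 were higher, 2 lower and 1 did not pass. Syntenin, Sdcbp, which links syndecans to exosome formation, rose by 0.21 ± 0.04 on the log2 scale and the scaffold Gipc1 by 0.49 ± 0.08, whereas the scaffold Cask had −1.14 ± 0.04 and protein kinase C alpha, Prkca, −0.82 ± 0.05. Of 5 tested shedding proteases Adam17 was higher, at 0.91 ± 0.05, and 4 were lower, among them Mmp2 at −0.95 ± 0.04, Mmp14 at −0.68 ± 0.04 and Mmp9 at −5.32 ± 0.26. Of 23 tested genes for the GPI anchor that glypicans need, 7 were higher, 8 lower and 8 did not pass, with a median log2 fold change of 0.01.

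Members and their neighbours on the chromosome did not always share a direction. Over all tested genes 37.5% were higher and 38% lower, which stands beside each count here. Of the 4 nearest tested genes on each side of Gpc6, 7 were higher, none lower and 1 did not pass, while Gpc6 was lower. The median log2 fold change of these neighbours was 0.34, beside 0.49 over all tested genes of chromosome 14. Around Sdc3, 3 were higher, 2 lower and 3 did not pass, with log2 fold changes from −0.22 to 0.77 beside its −4.11. Around Sdc1, 2 were higher and 5 lower, while Sdc1 was higher. Around Gpc3, 4 were higher, 2 lower and 2 did not pass, and the largest of these was Hs6st2 at 1.79 ± 0.04. Around Sdc4, 5 were higher and 1 lower, in the direction of Sdc4, and around Sdc2 the direction was shared as given above.

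**Figure D5:**
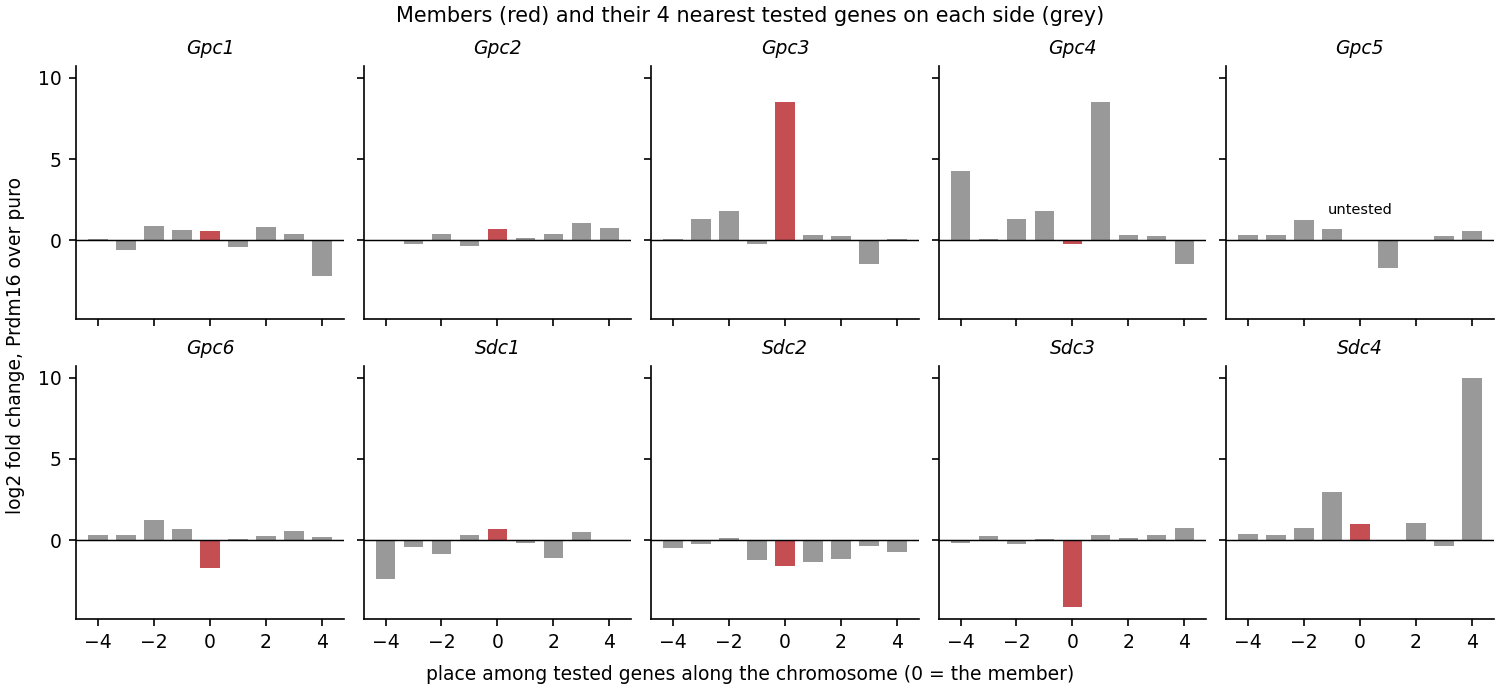
Log2 fold change, Prdm16 over puro, of each member (red, at 0) and of its 4 nearest tested genes on each side along the chromosome (grey), 1 panel per member. Sdc3 and Gpc6 point down among neighbours that mostly do not, Gpc3 stands far higher beside a slightly lower Gpc4, and Sdc2 lies among 7 lower genes.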

How the data were processed

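Polyadenylated RNA was sequenced in 6 libraries, 3 per group, after Trizol and PureLink extraction and TruSeq preparation, per the labels' protocols. The submitters' processing notes name STAR, featureCounts, Subread and the build mm9, with no role or order. Not given in the sources used here are versions, annotation, strand setting and the handling of multiply mapped reads. The authors deposited raw whole-number counts for each gene symbol and library.

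The analysis used edgeR 4.0.16 (R 4.3.3). The default expression filter kept 13805 genes and removed 10392 that held 0.0297% of counts. TMM gave the scaling, and the 2-sided quasi-likelihood test of the group term was run on all tested genes, with Benjamini-Hochberg adjusted p-values and a threshold of 0.05. SE was the fold change over the root of F. Exon lengths came from GENCODE M21 (GRCm38), matched by symbol for all 10 members; promoter sequences and neighbour order came from RefSeq GRCm38.p6, and no coordinate of the files was used. The code was tested on simulated data. Alternatives were RLE and upper-quartile scaling, other filters, DESeq2 1.42.0, limma-voom (limma 3.58.1), a replicate block, Prdm16 left out, chromosome medians subtracted, other lengths, and each library left out.

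The members, gene lists and alternatives were chosen with earlier results of these data known. Every member is named; of other lists, up to 4 genes with the smallest p, and others only for contrast (Hs6st3, Hpse, Gpld1, Srgn, Ankmy1, single cell markers), the latter chosen after their values were seen.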

Additional observations from a re-analysis of the deposited data

How the results depend on the processing

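All 9 tested members kept their direction under every alternative, and the counts of 5 higher and 4 lower members were the same in all 14 fits. Among the related genes 27 to 33 were higher and 35 to 39 lower. Relative to chromosome medians Gpc2 had 0.53, Gpc6 −2.22 and Sdc2 −1.19. Leaving out a library moved the fitted value of Gpc3 between 8.01 and 9.83, since its puro level rests on 8 counts.

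The glypican share of the family depended on the length used. In puro libraries it was 17.7% per kb of all exons, 18.7% with the longest transcript and 17.5% by CPM without length, and in Prdm16 libraries 25.1%, 25.9% and 27.0%. By CPM without length some member shares moved by over 1.5 times: Sdc3 as given above, Gpc6 from 3.71% to 6.01% in puro and from 1.49% to 2.91% in Prdm16 libraries, Sdc4 from 12.9% to 8.27% in puro and Gpc1 from 5.61% to 8.82% in Prdm16 libraries.

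The labels number replicates 1 to 3 in both groups, without saying that a number marks a shared source. Deviations of same-numbered libraries from their group means correlated at −0.16, 0.10 and −0.07 across genes. Those of differently numbered libraries correlated at −0.19 to 0.25. The deviations within a group are tied to each other, so these values cannot settle whether the numbers mark pairs. The numbers were not taken as pairs, since the labels do not say that they are. With the replicate number as a block 5 members were higher and 4 lower, and 31 related genes were higher and 36 lower. Depth limits Gpc5 in all libraries and Gpc3 in puro libraries.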
